A study of Homo sapiens with 10 samples.

Results

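The peaks described here are the N6-methyladenosine (m6A) peaks of human chromosome 19 that lie outside its zinc finger gene clusters, in 5 colon cancer cell lines. They were chosen by position alone. A peak was taken when its summit on hg19 fell on chromosome 19, outside 6 windows that hold the zinc finger clusters (11.6 to 12.8, 19.8 to 24.3, 36.7 to 38.3, 44.3 to 45.0, 52.3 to 53.9 and 57.0 to 59.1 Mb) and outside the centromere window (24.3 to 28.5 Mb). This gave 1958 of 37417 peaks on chromosomes 1 to 22, X and Y: HCT116 had 674 of them, HT29 421, HCT15 26, COLO320DM 421 and COLO205 416. They are called the chromosome 19 peaks below. The 6 zinc finger windows held a further 265 peaks and the centromere window 7. The stretch searched was 43.2 Mb long, which was 73.1% of chromosome 19 and 1.40% of all chromosome spans.

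RNA carrying m6A was pulled down with an antibody from fragmented total RNA and sequenced (MeRIP-seq), with unenriched RNA as input. The labels give COLO320DM and COLO205 as colon, and HCT15, HT29 and HCT116 as colorectum. All are established cancer lines, with no treatment named, grown in the same medium (DMEM with serum and antibiotics). Per the labels, 300 µg of RNA was cut to about 100 nt and 10% was saved as input. Each line had 1 immunoprecipitation (IP) library and 1 input, so there was no replicate spread and no test between lines was possible. Line and library cannot be told apart in any comparison between lists.

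m6A is the most abundant internal modification of messenger RNA. A methyltransferase complex built around METTL3 and METTL14 writes it, FTO and ALKBH5 remove it, and YTH-domain proteins bind it and affect the splicing, translation and decay of the message. In mammalian messages it is known to be concentrated in long internal exons and around stop codons. Chromosome 19 is known as the most gene-dense and among the most GC-rich of the human chromosomes, with its zinc finger genes in a few large clusters. A peak can be called only where the transcript is present, so a list reflects both which genes a line expresses and how they are methylated.

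Read numbers were recovered from the deposited fold enrichment and p-value of each peak under the model of the peak caller. In M reads (M for mega), the IP libraries held 1.38 (HCT116), 2.13 (HT29), 1.47 (COLO320DM) and 2.99 (COLO205), and the inputs 2.24, 3.10, 2.28 and 5.41 in the same order. The HCT15 IP was the deepest, at 5.02 M, and the caller scaled it to the 1.61 M of its input. Its list was the shortest, with 905 peaks on these chromosomes against 8638 to 9835 in the long lists. That the HCT15 files match their label was not verified. All intervals below are exact Clopper-Pearson 95% intervals and cover counting error only.

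The chromosome 19 peaks were denser than the peaks of the other chromosomes in every list. There were 15.6 peaks per Mb in HCT116, against 2.80 on the other chromosomes, a ratio of 5.57 (5.15 to 6.03). In HT29 there were 9.74 per Mb, against 2.75, a ratio of 3.54 (3.20 to 3.90). In COLO320DM there were also 9.74 per Mb, against 2.67, a ratio of 3.65 (3.30 to 4.02). COLO205 had 9.63 per Mb, against 3.09 elsewhere, a ratio of 3.12 (2.82 to 3.44). The short HCT15 list had 0.602 per Mb, against 0.290, a ratio of 2.08 (1.35 to 3.06). HCT116 thus held the densest set, and its interval did not overlap those of the other lines.

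Set against single chromosomes, the stretch ranked first of 24 in the 4 long lists, and in place 5 in HCT15, behind chromosomes 21, 16 and Y among others. Chromosome 17, another gene-dense chromosome, carried per Mb 7.25 peaks of HCT116, 5.26 of HT29, 0.456 of HCT15, 6.69 of COLO320DM and 5.84 of COLO205. The chromosome 19 density was 2.15 times that of chromosome 17 for HCT116, 1.85 times for HT29, 1.46 times for COLO320DM and 1.65 times for COLO205, with intervals above 1 in all 4. In HCT15 the ratio was 1.32 (0.768 to 2.24), which 26 and 37 peaks could not tell from 1. Every other chromosome was counted over its full span, centromere included, while the stretch leaves out its centromere and zinc finger windows. This unlike length raises the ratios and can raise the ranks.

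Among the strongest peaks, the interval of the excess lay apart from that of the full list in HT29 alone. Among the 905 strongest peaks of each list by p-value, the ratio to the other chromosomes was 7.21 in HCT116 and 1.67 (1.03 to 2.58, 21 peaks) in HT29. The excess was thus smaller among the strongest HT29 peaks than in the full list. In HCT116 the interval (5.69 to 9.03) overlapped that of the full list but left out its ratio of 5.57. The intervals of COLO320DM (3.70, 2.68 to 4.99) and COLO205 (2.76, 1.90 to 3.88) included the ratios of their full lists. The strongest peaks are part of the full list, so overlap of these intervals is no test between them. For HCT15 the 905 peaks are the whole list. In HCT15, 6 of the 26 peaks (against 40.9% of the whole list) had a −log10 q of at least 5. The ratio was then 1.16 (0.422 to 2.54), which is not distinguishable from 1. That interval also overlapped the 1.35 to 3.06 of the full HCT15 list.

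**Figure D1:**
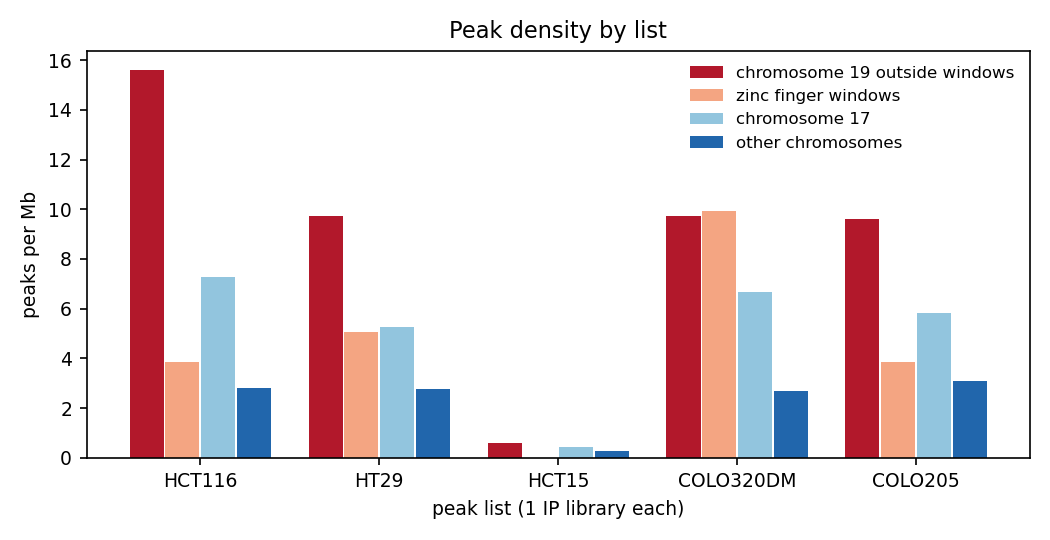
Peaks per Mb in each of the 5 lists on chromosome 19 outside the excluded windows, in the zinc finger windows, on chromosome 17 and on the other chromosomes (17 included). Bars are counts over length, with no error drawn. The chromosome 19 bar is tallest in HCT116, at 15.6 per Mb, and taller than that of the other chromosomes in every list; in COLO320DM it is level with the zinc finger windows.

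Within chromosome 19 the stretch outside the zinc finger windows was the denser one in 3 of the long lists. It held 4.05 times the density of the windows in HCT116 (15.6 against 3.85 per Mb), 1.93 times in HT29 (9.74 against 5.04) and 2.50 times in COLO205 (9.63 against 3.85). COLO320DM stood apart, with 9.74 per Mb outside the windows against 9.91 inside, a ratio of 0.983 (0.798 to 1.22). The HCT15 list had no peak in the windows, which allows up to 0.407% of its 905 peaks there.

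The position of the window edges bore on few of the chromosome 19 peaks, but on a larger part of those in the windows. Within 100 kb of an edge lay 37 of the 1958 chromosome 19 peaks. Just inside lay 45 peaks, where the zinc finger windows held 265 in all and the centromere window 7. In COLO320DM 19 peaks lay just inside, where its zinc finger windows held 116. The comparison with the windows was not repeated with moved edges. The nearest outside was an HCT116 peak at chr19:11597839-11597943 with a fold of 4.95, and the nearest inside an HCT116 peak at chr19:44300445-44300654 with a fold of 8.53.

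Gene number gave another reading of density. By the RefSeq gene table (GRCh38.p14, used for gene numbers per chromosome and for no position), chromosome 19 carries 1451 protein-coding genes, 7.24% of all, of which 250 have names that begin with ZNF. Over the whole chromosome, the zinc finger and centromere windows included, there were 49.6 peaks per 100 genes in HCT116, against 45.7 on the other chromosomes. The other lists held fewer than elsewhere, with 33.2 against 45.0 in HT29, 1.79 against 4.73 in HCT15, 37.2 against 43.6 in COLO320DM and 31.9 against 50.4 in COLO205. Per gene, chromosome 19 ranked 12 of 24 in HCT116 and between 20 and 22 in the other lists. High per length, it was thus at or below the level of the other chromosomes per gene outside HCT116.

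Input coverage differed widely between the lines. A peak is called input-covered here when the caller's local background at its summit came to 1 input fragment or more; the rest are called input-poor. Of the chromosome 19 peaks, 494 of 674 were input-covered in HCT116, or 73.3% (69.8 to 76.6), against 57.0% on the other chromosomes and 58.0% of the whole list. In COLO320DM 331 of 421, or 78.6% (74.4 to 82.4), were covered, against 61.9% on the other chromosomes and 62.2% of the list. In COLO205 it was 229 of 416, or 55.0% (50.1 to 59.9), against 51.4% on the other chromosomes and 51.4% of the list. HT29 had 148 of 421, or 35.2% (30.6 to 39.9), against 38.9% on the other chromosomes and 38.7% of the list. In HCT15 none of 26 was covered (up to 13.2%), against 20.7% on the other chromosomes and 20.1% of the list. Chromosome 19 peaks were therefore more often covered than elsewhere in HCT116 and COLO320DM, and close to the list in COLO205 and HT29. Chromosome 17 had a like share in HCT116, 73.2% (69.4 to 76.7), and 71.1% (67.1 to 74.9) in COLO320DM, so both gene-dense chromosomes lay above the list there. In HT29 and COLO205 chromosome 17 was the more covered of the pair, with chromosome 19 at 35.2% against 50.6% (45.7 to 55.4) in HT29 and at 55.0% against 62.7% (58.1 to 67.0) in COLO205.

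The threshold of 1 fragment means a different level in each input, since the inputs differ in depth. At 1 common level relative to input depth for all lists, set by the shallowest input, the covered share was 65.1% in HCT116, against 45.6% on the other chromosomes, and 68.9% in COLO320DM, against 49.9%. It was 26.8% (22.7 to 31.3) in HT29, against 26.1%, and 17.8% (14.2 to 21.8) in COLO205, against 20.1%. The excess of HCT116 and COLO320DM was thus seen at both thresholds. COLO205 turned from above the other chromosomes to below them and HT29 from below to above, and in both the interval at the common level includes the value elsewhere.

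The excess density was larger among covered than among input-poor peaks in HCT116 and COLO320DM. Covered peaks were 7.16 times as dense on chromosome 19 as elsewhere in HCT116 and input-poor peaks 3.46 times. In COLO320DM the ratios were 4.63 for covered and 2.05 for input-poor peaks. COLO205 had the same order, 3.34 for covered and 2.88 for input-poor peaks. HT29 had the opposite order, 3.20 for covered and 3.76 for input-poor peaks, and in these 2 lists the intervals of the classes overlapped. In HCT15 the density ratio was 2.62 (1.70 to 3.87) among input-poor peaks, with no covered peak. The near-equal density inside and outside the zinc finger windows of COLO320DM split by class. Covered peaks were 2.89 times as dense outside the windows as inside, and input-poor peaks 0.287 times.

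Local input was high at many of these peaks. The median chromosome 19 peak had 3.0 input fragments of background in HCT116, against 1.00 on the other chromosomes, and 3.0 in COLO320DM, against 1.39. In COLO205 the medians were 1.00 and 1.00, in HT29 0.225 and 0.255, and in HCT15 0.0740 and 0.0740. At least 10 fragments lay behind 15.6% of the chromosome 19 peaks in HCT116, against 7.81% elsewhere, and 15.9% in COLO320DM, against 9.66%. In HT29 it was 6.89%, against 5.08%. COLO205 went the other way, with 3.85% against 7.81%, so that its most covered peaks were fewer here than on the other chromosomes. Within a list, chromosome 19 and the other chromosomes come from the same input library and share its depth. Between lists depth differs, and its part beside transcript abundance was not tested.

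**Figure D2:**
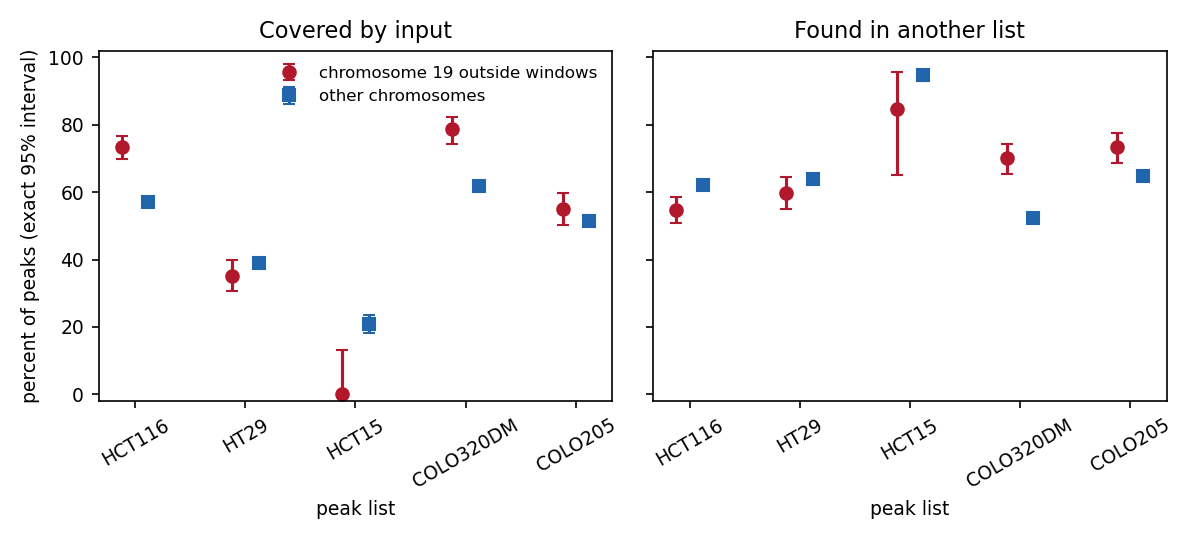
Percent of peaks that were input-covered and percent found in another list, for each of the 5 lists, on chromosome 19 outside the windows and on the other chromosomes; bars are exact 95% intervals of counting error. HCT116 and COLO320DM lie above their other chromosomes in input coverage, and HCT116 and HT29 do not lie above them in the share found in another list.

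In width and fold, the chromosome 19 peaks were near the rest of each list. The median width was 128.5 nt in HCT116, against 117 nt on the other chromosomes, and 128 against 114 nt in COLO320DM. In HT29 it was 129 against 129 nt, in COLO205 133 against 126 nt and in HCT15 134.5 against 124 nt. In the long lists covered peaks were wider at the median than input-poor ones. Within the covered class the HCT116 medians were 140 nt both here and elsewhere, and those of COLO320DM 133 against 135 nt. Within the input-poor class the medians were 92 against 85 nt in HCT116 and 105 against 81 nt in COLO320DM.

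Median fold, the ratio of the IP at the summit to its local background with a pseudocount of 1 on both, was slightly lower than elsewhere in all 5 lists. It was 4.95 in HCT116, against 5.12, and 5.47 in HT29, against 5.67. It was 5.42 against 5.72 in HCT15, 4.92 against 5.23 in COLO320DM and 5.55 against 5.70 in COLO205. The quartiles overlapped widely: in HCT116 the quartiles were 3.85 and 6.67 on chromosome 19, against 3.85 and 6.74 elsewhere. The lower median did not hold in every input class. Among input-poor peaks it was 4.60 against 4.58 in HCT116 and 5.67 against 5.67 in HT29. It was 5.39 against 4.77 in COLO320DM, 5.54 against 5.54 in COLO205 and 5.42 against 5.88 in HCT15. Among covered peaks it was 5.15 against 5.57 in HCT116 and 4.82 against 5.48 in HT29. There it was 4.84 against 5.47 in COLO320DM and 5.85 against 5.80 in COLO205.

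The high end was thinner in HT29. Folds of at least 10 were reached by 13 of its chromosome 19 peaks, or 3.09% (1.65 to 5.22), against 8.56% (7.97 to 9.18) on the other chromosomes and 8.29% of the whole list. It was 30 peaks in HCT116, or 4.45%, against 5.77% elsewhere and 5.67% of the list. In COLO320DM it was 21, or 4.99%, against 5.83% and 5.75%, and in COLO205 35, or 8.41%, against 9.25% and 9.24%. HCT15 had none among 26, against 4.31% of its list. The highest fold on chromosome 19 was 16.6 for HCT116, 16.2 for HT29, 8.12 for HCT15, 14.6 for COLO320DM and 20.7 for COLO205, against 29.8, 40.7, 18.3, 32.3 and 37.1 on the other chromosomes in the same order. The highest fold of every list thus lay elsewhere. Maxima depend on set size, and each list had far more peaks there (879 to 9372) than here (26 to 674).

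A −log10 q of at least 5 was reached by 377 chromosome 19 peaks in HCT116, or 55.9%, against 53.9% of the whole list. It was reached by 238 in COLO320DM, or 56.5%, against 54.6% of the list. In COLO205 it was 236, or 56.7%, against 59.5%, and in HT29 222, or 52.7% (47.8 to 57.6), against 59.5%. In HCT15 it was 6 peaks, or 23.1%, against 40.9%. By this measure the chromosome 19 peaks were near the list in HCT116, COLO320DM and COLO205, and weaker in HT29.

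Reads behind the summits differed more from the list. The median chromosome 19 peak had 16 IP reads in HCT116, against 11 elsewhere, and 16 in COLO320DM, against 12. It had 6 in HT29, against 8, and 9 in COLO205, against 9. Fewer than 5 reads lay behind 14.5% of these peaks in HCT116, against 25.9%, and behind 8.31% in COLO320DM, against 20.8%. In HT29 the share was 18.5%, against 17.0%, and in COLO205 13.9%, against 13.8%. On chromosome 17 the share was 15.1% (12.3 to 18.3) in HCT116, near that of chromosome 19, and 14% (11.2 to 17.2) in COLO320DM. Peaks of 500 nt or more numbered 26 in HCT116, or 3.86% (2.54 to 5.60), against 1.66% (1.40 to 1.96) elsewhere, and 8 in COLO320DM, or 1.90%, against 1.43%. In HT29 they were 13, or 3.09%, against 4.09%, and in COLO205 8, or 1.92%, against 2.46%, both within counting error.

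Sharing between lists also differed by line. A chromosome 19 peak counts as found in another list when it overlaps a peak there by at least 1 nt. In COLO205 305 of 416 were found in another list, or 73.3% (68.8 to 77.5), against 64.8% on the other chromosomes and 65.1% of the whole list. In COLO320DM it was 295 of 421, or 70.1% (65.5 to 74.4), against 52.3% elsewhere and 52.9% of the list. HCT116 had the opposite, with 369 of 674, or 54.7% (50.9 to 58.6), against 62.2% elsewhere and 61.6% of the list. HT29 had 252 of 421, or 59.9% (55.0 to 64.6), against 64.0% elsewhere and 63.7% of the list. In HCT15 22 of 26 were found, or 84.6%, against 94.7% elsewhere and 94.4% of the list. On chromosome 17 the share was 73.6% in COLO205, near that of chromosome 19, then 57.6% in COLO320DM, 65.4% in HCT116 and 69.8% in HT29. List size enters all these shares. HCT116 had 674 peaks here against 416 to 421 in the other long lists, but elsewhere 8486 against 8098 to 9372. How much of the differences follows from these numbers was not tested.

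The rule for overlap bore on the level. With 50% reciprocal overlap the share was 38% in HT29, against 45.0% elsewhere, and 26.9% in HCT15, against 59.7%, a wider gap for HCT15 than with 1 nt. With the HCT116 list left out, 44.4% of the COLO320DM peaks were found in another list, and with HT29 left out 53.8% of the HCT15 peaks. For lists left out, the shares on the other chromosomes were not taken.

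Input coverage moved with sharing. Of the covered chromosome 19 peaks, 89.9% were found in another list in HT29, against 86.9% on the other chromosomes, 84.3% in COLO205, against 73.4%, and 77.3% in COLO320DM, against 68.1%. In HCT116 it was 59.3%, against 72.8%. Of input-poor peaks, 43.6% were found in HT29, against 49.3%, 59.9% in COLO205, against 55.7%, 43.3% in COLO320DM, against 26.5%, and 42.2% in HCT116, against 48.1%. Of the long lists, only in HCT116 were covered chromosome 19 peaks shared less often than elsewhere, and its larger number of peaks here enters this share too. Its 305 unshared peaks included 201 covered ones, or 65.9% (60.3 to 71.2), against 41.0% of the unshared HCT116 peaks on the other chromosomes.

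The pairs of lists showed where the sharing lay. COLO320DM peaks were found in HCT116 in 64.8% of cases, against 41.2% elsewhere, and COLO205 peaks in 53.8%, against 38%. Counted from HCT116, its peaks were found in COLO320DM in 39.0%, against 38.8%, and in COLO205 in 32.2%, against 42.2%. HCT116 peaks were found in HT29 in 25.5% of cases, against 37.2%, but HT29 peaks in HCT116 in 42.5% (37.7 to 47.4), against 37.2%. The direction of the difference for HCT116 and HT29 thus depended on which list was counted. The larger number of HCT116 peaks here enters each pair with HCT116. HT29 peaks were found in COLO205 in 46.1%, against 52.6%, and COLO205 peaks in HT29 in 45.0% (40.1 to 49.9), against 47.9%. Among the 260 HCT116 peaks with at least 20 IP reads, 72.3% were found in another list, against 84.9% of such HCT116 peaks elsewhere.

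Merging overlapping peaks of all lists gave 1152 regions on chromosome 19. Of these, 715 (62.1%) came from 1 list, 228 (19.8%) from 2, 117 (10.2%) from 3 and 92 (7.99%) from 4. None came from all 5. On the other chromosomes the shares were near these, at 64.0%, 17.8%, 9.74%, 8.30% and 0.138% for 1 to 5 lists. The regions of HCT116 alone were the largest class, with 305 or 26.5%, against 15.3% of 20970 regions on the other chromosomes. The larger number of HCT116 peaks here enters this class and those of the other lists, and its part was not tested. Regions of COLO320DM alone made up 10.9%, against 18.4%, and of COLO205 alone 9.64%, against 15.7%, while HT29 alone was level, with 14.7% against 14.4%. HCT116 with COLO320DM gave 96 regions, or 8.33%, against 4.51%, and these with COLO205 a further 57, or 4.95%, against 2.77%. HT29 with COLO205 gave 50, or 4.34%, against 6.03%, and HT29 with COLO320DM 1 region, or 0.0868%, against 0.978%.

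**Figure D3:**
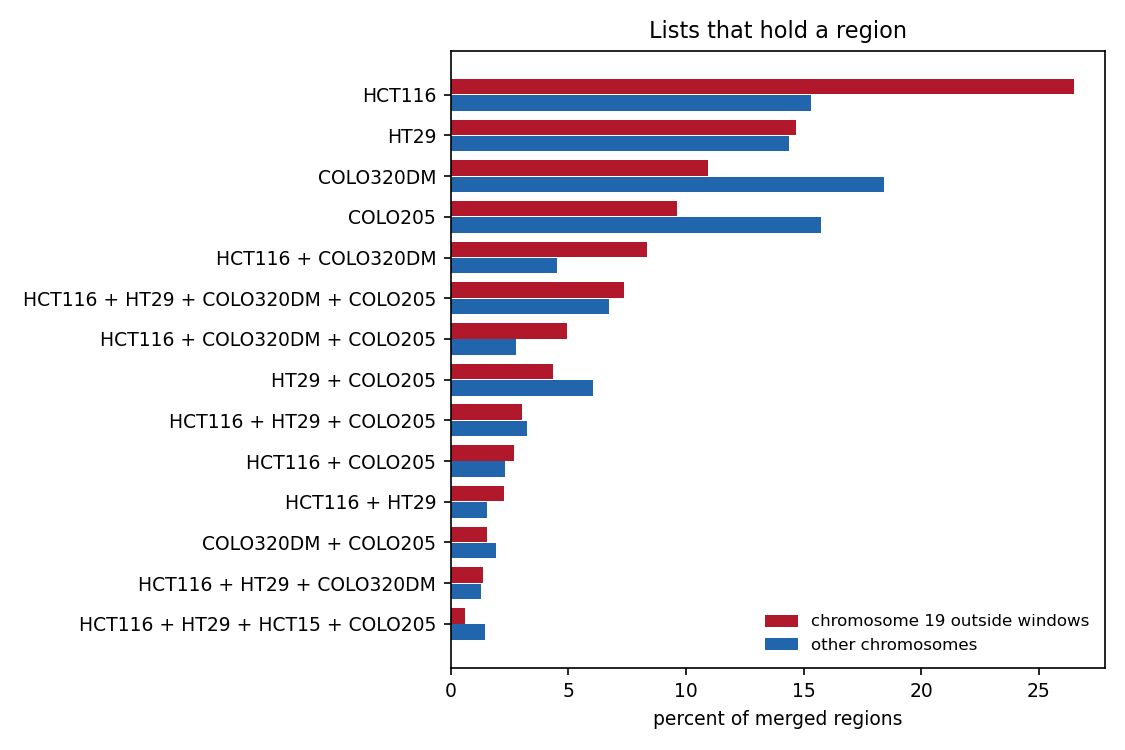
Percent of merged regions held by exactly the lists named, for the 14 combinations with most regions on chromosome 19, drawn for the 1152 regions of chromosome 19 outside the windows and for the 20970 regions of the other chromosomes. HCT116 alone and HCT116 with COLO320DM take a larger percentage on chromosome 19, and COLO320DM alone and COLO205 alone a smaller one.

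The 4 long lists (HCT116, HT29, COLO320DM and COLO205) all held 85 of the regions, or 7.38% (5.94 to 9.04), against 6.87% on the other chromosomes. Of these, 79 (92.9%) were covered in most of their peaks, against 85.1% of such regions on the other chromosomes. Judged by the highest-fold peak of each list, 68 were covered in all 4 lists and 1 in none. Over the 85 regions the median fold was 7.24 (HCT116), 4.68 (HT29), 5.57 (COLO320DM) and 7.68 (COLO205), taking that same peak. Median IP reads were 29, 21, 26 and 18, and median local input 5.00, 4.20, 5.00 and 2.0 fragments, in the same order. The fold was highest in COLO205 in 45 of the 85 and lowest in HT29 in 45, with the highest 1.99 times the lowest at the median region. It was 2 or more times in 42 and 3 or more times in 11. Local input differed between lists together with fold, and library depth differed too. The part of local input and depth in these differences was not tested.

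First by the lowest of its 4 percentiles of fold was chr19:56128158-56128501, with a fold of 16.6 for HCT116, 9.62 for HT29, 11.4 for COLO320DM and 13.3 for COLO205. It was the highest fold of HCT116 on chromosome 19 and had 27 to 40 IP reads in each list. Another region nearby, chr19:56165803-56166203, had folds of 11.9, 7.38, 10.1 and 13.6 in the same order and 50 to 57 reads. The region chr19:1827039-1827900, which came between these 2 in that order, had a fold of 16.2 for HCT116, 9.82 for HT29, 10.0 for COLO320DM and 20.7 for COLO205; it was the highest −log10 p of HCT116, at 54.0, and the highest fold of COLO205. HT29 was lowest in all 3 of these regions.

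HT29 had its own highest fold at chr19:3462832-3463518, 16.2, where COLO205 had 20.4, COLO320DM 9.56 and HCT116 7.28. This was the highest −log10 p of HT29 on chromosome 19, at 59.6, and the highest of COLO320DM, at 40.2. HCT116 had 78 IP reads there, the most of the 4, over a local input of 16.0 fragments, against 62 reads over 4.20 fragments in HT29. The low fold of HCT116 thus stood beside the highest read number and the highest input.

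At chr19:16664302-16664704 the fold was 7.09 for HCT116, 12.98 for HT29, 10.0 for COLO320DM and 18.1 for COLO205. At chr19:13205586-13205911 it was 9.44, 6.96, 7.12 and 13.6 in the same order. COLO205 was highest in both. Another pair of regions lay next to each other, chr19:48698677-48700041 with 10.5, 8.20, 8.58 and 7.66, and chr19:48700321-48700720 with 8.58, 9.16, 6.76 and 9.02. The first held the widest peak of the stretch, 1322 nt in HCT116 at chr19:48698720-48700041, where HT29 had 2 separate peaks and COLO320DM 4. The folds of these neighbours differed little between lines.

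The remaining named regions were chr19:48984117-48984653, with folds of 6.79 to 8.37, and chr19:11256654-11256869, with 6.84 to 10.2. The other widest peaks were 1255 nt in COLO320DM at chr19:47569630-47570884, and 1085 nt in HCT116 at chr19:49000659-49001743. All the widest 3 overlapped peaks in each of the 4 long lists.

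**Figure D4:**
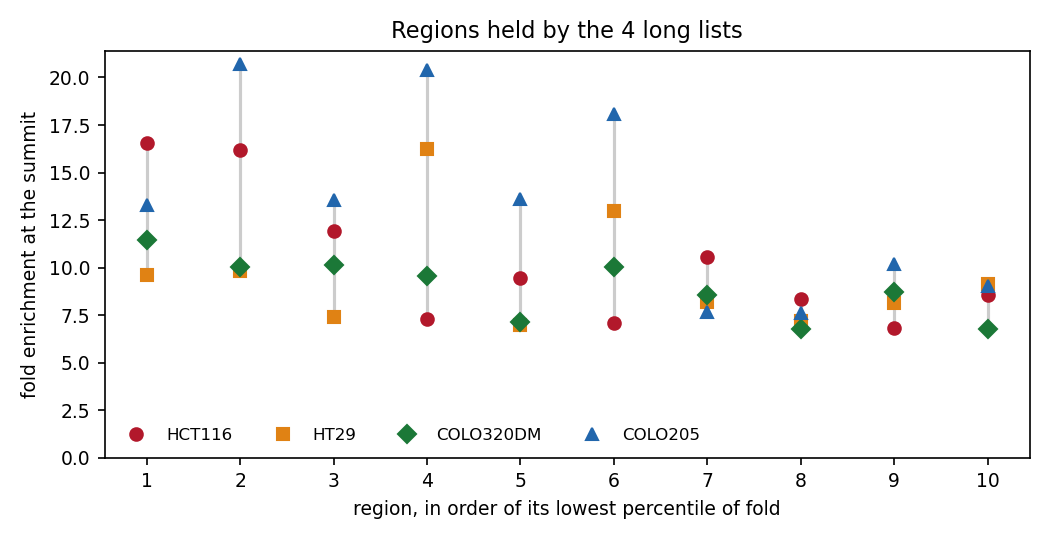
Fold enrichment at the summit on a linear axis, for the 10 named regions of chromosome 19 held by the 4 long lists, ordered by their lowest percentile of fold (1 is chr19:56128158-56128501). Each symbol is 1 list and each grey line spans the lowest to the highest of the 4; the lists spread widest in the regions with the highest COLO205 folds, 20.7, 20.4 and 18.1, and least in regions 8 and 10.

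Peaks with high fold that did not lie in the 4 long lists were few among those named. In HCT116 chr19:39797975-39798502 had a fold of 16.2 with 45 IP reads over 3.0 input fragments, and overlapped peaks of HCT15 and COLO320DM, with neither HT29 nor COLO205. In HT29 chr19:49172151-49172471 had a fold of 15.0 with 15 reads over 0.0975 input fragments, and overlapped peaks of COLO205 (fold 7.39) and HCT15 (6.31). HT29 at chr19:59118855-59118981, at the far end of the long arm, had a fold of 14.8 and overlapped a COLO205 peak of 7.39 alone.

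The highest folds of COLO320DM were 14.6 at chr19:55608135-55609108, 13.95 at chr19:45166603-45166737 and 12.6 at chr19:48901294-48901543, all with peaks in the other long lists. At the chr19:45166603-45166737 position COLO205 had 14.1, HCT116 8.94 and HT29 4.98, with 17.0 input fragments in HT29 against 2.0 in COLO320DM. In COLO205 the highest −log10 p was there, at 53.4, and the second highest at chr19:4047675-4048003, with a fold of 17.3, against 9.60 in HCT116 and 5.53 in COLO320DM. HT29 had 2 peaks at chr19:4047675-4048003, of 4.57 and 3.77. COLO320DM at chr19:10802391-10802707 had a fold of 11.9, against 16.6 in COLO205, 8.10 in HCT116 and 5.35 in HT29.

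Over all shared regions, fold ranked most alike between HCT116 and COLO320DM (Spearman 0.477 over 255 regions, against 0.427 elsewhere) and HCT116 and COLO205 (0.473 over 215, against 0.320). HT29 and COLO320DM gave 0.444 over 105 regions, against 0.376, and COLO320DM and COLO205 0.343 over 163, against 0.355. The pairs HCT116 and HT29 (0.192 over 170, against 0.230) and HT29 and COLO205 (0.150 over 184, against 0.299) were weakest. These are descriptions across regions of single libraries, which are not replicates and which share the effects of local input and depth.

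Summits of overlapping peaks lay within 50 nt of each other less often here than elsewhere in the 3 pairs of long lists with COLO320DM. For HCT116 and COLO320DM it was 67.3% (61.3 to 72.9) of 263 peaks, against 78.9%, and for COLO320DM and COLO205 71.6% (64.2 to 78.3) of 169, against 80.7%. For HT29 and COLO320DM it was 70.3% (60.9 to 78.6) of 111, against 79.7%. The other 3 pairs were within counting error, with 63.4% (56.2 to 70.2) against 66.9% for HT29 and COLO205, 64.5% (56.9 to 71.7) against 71.2% for HCT116 and HT29, and 68.7% (62.0 to 74.8) against 73.5% for HCT116 and COLO205.

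Chromosome 19 peaks were unevenly placed along the stretch. The outer 5 Mb of the short arm, 11.6% of the length, held 154 peaks of HCT116 (22.8%), 76 of HT29 (18.1%), 11 of HCT15 (42.3%), 85 of COLO320DM (20.2%) and 61 of COLO205 (14.7%). Covered peaks there numbered 23.4 per Mb in HCT116, 14 in COLO320DM, 5.00 in COLO205 and 3.80 in HT29. Input-poor peaks numbered 7.40 per Mb in HCT116, 3 in COLO320DM, 7.20 in COLO205 and 11.4 in HT29. Of the covered peaks this zone held 23.7% in HCT116 and 21.1% in COLO320DM, against 12.8% in HT29 and 10.9% in COLO205. Of the input-poor peaks it held 20.6% in HCT116, 20.9% in HT29, 19.3% in COLO205 and 16.7% (9.64 to 26.0) in COLO320DM. Crowding of input-poor peaks near the short arm end was thus not particular to HT29. Among input-poor peaks, only in COLO320DM did the interval include the share of length. For covered peaks the interval included it in HT29 (7.91 to 19.3) and COLO205 (7.19 to 15.7). It did so too for all COLO205 peaks together (11.4 to 18.4).

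**Figure D5:**
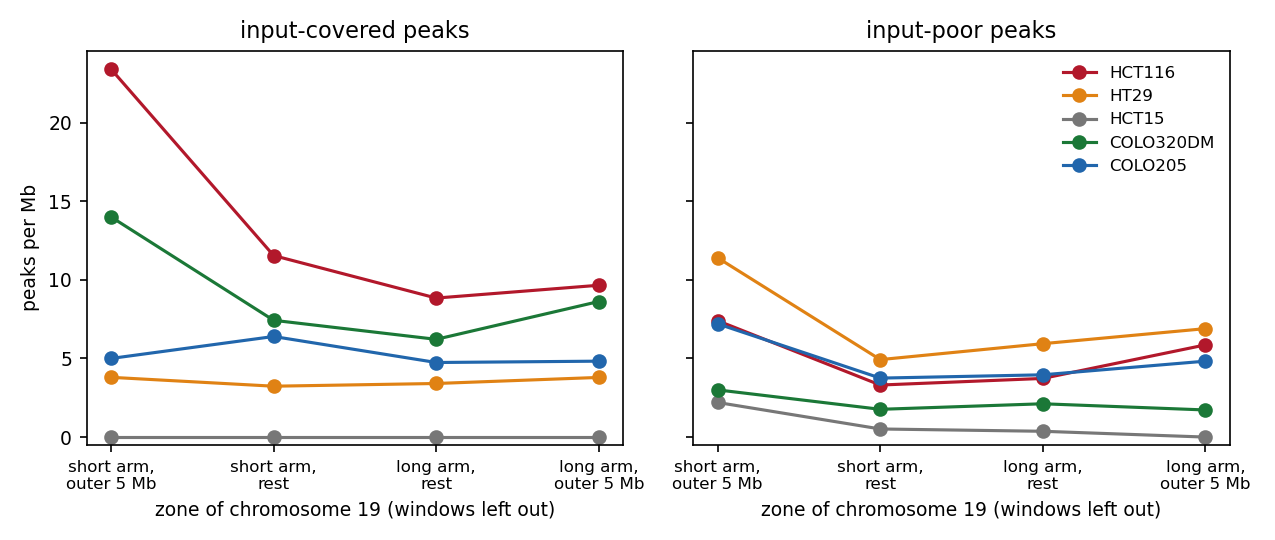
Peaks per Mb in 4 zones of chromosome 19 outside the windows, split into input-covered and input-poor peaks, for each list. Lines join the zones of 1 list. Covered peaks are densest in the outer 5 Mb of the short arm in HCT116, at 23.4 per Mb. Input-poor peaks are densest in that zone in every list, with the highest value in HT29, at 11.4 per Mb.

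By 1-Mb window, the densest was the second megabase (1000001 to 2000000) in HCT116, with 43 peaks of which 40 were covered. HT29 had 11 peaks in it, COLO320DM 19, COLO205 11 and HCT15 none. HCT116 also peaked at 3000001 to 4000000 with 36 and at 4000001 to 5000000 with 34. The window at 4000001 was also the first in HT29, with 24, and in COLO320DM, with 27. COLO205 was densest further down the long arm, with 25 at 50000001 to 51000000 and 21 at 47000001 to 48000000, and 48000001 to 49000000 was among the top 3 in HT29 (22), COLO320DM (21) and COLO205 (18). COLO320DM also had 22 at 47000001. The HT29 list had 19 at 33000001 to 34000000.

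Window counts ranked alike in HCT116 and COLO320DM (Spearman 0.813 over 44 windows) and in HT29 and COLO205 (0.741), and less so in HT29 and COLO320DM (0.512). As a description of single libraries, these share gene density. The window at 30000001 to 31000000, chosen after its values were seen, held 17 peaks in HT29, none of them covered, and 11 in COLO205, against 4 in HCT116 and 1 in COLO320DM. The window at 43000001 held 2 peaks of HCT116 and 1 of COLO320DM, and none of the other lists.

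Neighbouring peaks were closer than elsewhere in HCT116 and COLO320DM. Another peak of the same list lay within 1 kb for 37.5% (33.9 to 41.3) of the HCT116 peaks, against 28.7% elsewhere, and for 34.2% (29.7 to 39.0) in COLO320DM, against 26.8%. HT29 was level, at 39.9% against 40.1%, and COLO205 lower, at 29.8% (25.4 to 34.5) against 38.3%.

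All 26 HCT15 peaks were input-poor, with 11 to 24 unscaled IP reads and folds of 4.22 to 8.12, and 10 of them stood at the genome mean of the input. Among them, HT29 had an overlapping peak for 19, or 73.1% (52.2 to 88.4), against 85.7% of the HCT15 peaks elsewhere. COLO205 had one for 11, or 42.3% (23.4 to 63.1), against 79.6%. HCT116 had one for 9, or 34.6% (17.2 to 55.7), against 42.9%, and COLO320DM for 1, or 3.85%, against 6.26%. Overlap with COLO205 was the one that fell outside counting error. The strongest were chr19:39798172-39798267, with a fold of 8.12 and 24 reads, and chr19:33741149-33741319, with 8.04 and 23 reads. At the second, HT29 had a fold of 7.17, COLO205 7.92 and HCT116 3.85. At the first, HCT116 had 16.2 and COLO320DM 6.70 over 10.0 input fragments, where the HCT15 background was 0.0740 fragments.

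The first megabase held 7 of the HCT15 peaks, within 63.0 kb: chr19:381213-381375 (fold 6.62), chr19:381935-382077 (5.72), chr19:415227-415375 (4.22), chr19:415551-415624 (5.42), chr19:443109-443202 (4.96), chr19:443343-443428 (5.88) and chr19:443663-444172 (5.58). The 4 HCT15 peaks in no other list were chr19:381213-381375, chr19:381935-382077, chr19:443109-443202 and, further along, chr19:17089892-17090070 (4.34). On the short arm beyond it were chr19:2713694-2714002 (6.32), chr19:3235593-3235866 (6.50), chr19:3477696-3477785 (6.50), chr19:3776759-3776859 (5.58), chr19:5019452-5019605 (4.62) and chr19:5423782-5423928 (4.52). Then came chr19:8313527-8313615 (4.52), chr19:8313786-8313890 (4.65), chr19:17089609-17089707 (5.27) and chr19:19065253-19065506 (5.42). On the long arm were chr19:30953901-30953996 (5.12), chr19:33740702-33740849 (4.82), chr19:35788961-35789082 (4.82), chr19:35789218-35789343 (5.72), chr19:49172214-49172369 (6.31) and chr19:49326014-49326087 (4.52). Several came in pairs within 1 kb, 15 of the 26 having such a neighbour, or 57.7% (36.9 to 76.6), against 40.3% of the HCT15 peaks elsewhere.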

How the data were processed

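m6A MeRIP-seq IP peak lists of 5 lines were used; inputs entered only through the lists. Per the submitters' processing notes, cutadapt, FastQC, BWA, MACS2 and hg19 were used; versions and parameters are not given in the sources used here. Peaks were called per IP library. The authors' deposited fold enrichment (a ratio), −log10 p, −log10 q and score were used as given. The −log10 p and −log10 q were used only within a list. Fold was also compared between lists at shared regions, without correction for the differing depth and local input of the libraries. The deposited score column was not used further.

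IP reads and local background were recovered from fold, (reads + 1) / (background + 1), and the Poisson −log10 p (tolerance 0.001); HCT15 reads fitted only as 0.322 each. Depths assume a genome of 2.7 Gb and the shortest peak as fragment length, and the control is taken to be the line's input, which no source states. Recovery was checked on simulated peaks, and overlaps against bedtools 2.31.1. Positions count from 1. Shares were set against chromosomes 1 to 22, X and Y without 19. Regions are merged overlapping peaks; 1-Mb windows with at least 0.5 Mb inside the stretch were counted. No test was made. With no hg19 annotation used here, peaks are named by position and no sequence is shown.

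Named peaks are the 3 highest by −log10 p and by fold of each list, all 26 of HCT15, the 10 regions of the 4 long lists ranked first by their lowest percentile of fold, the 3 widest, and the 3 densest windows of each list. The members, lists and named-peak rule were chosen with earlier results of these data known. Alternatives were stricter lists (−log10 q from 5, or fold from 4, upward), the 905 strongest peaks, windows widened by 0.5 Mb, a common input threshold, reciprocal overlap of 50%, summits within 100 nt and each list left out. Scripts ran in Python 3.11.15 with scipy 1.17.1, pandas 2.3.3, numpy 2.4.6 and matplotlib 3.10.9.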

Additional observations from a re-analysis of the deposited data

How the results depend on the processing

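The density ratio of chromosome 19 to the other chromosomes stayed above 1 in each of the 5 lists under every alternative run, though its interval included 1 for HCT15 with −log10 q from 5 upward. With the 905 strongest peaks the ratio was 7.21 in HCT116, 1.67 in HT29 and 2.76 in COLO205. At a −log10 q of at least 5 it was 3.12 in HT29 and 1.16 in HCT15. With at least 5 IP reads, an alternative added after seeing the data, it was 6.43 in HCT116 and 4.22 in COLO320DM. The input-covered share was 65.1% for HCT116, 26.8% for HT29, 68.9% for COLO320DM and 17.8% for COLO205 at a common input threshold, and 82.5% in HCT116 and 62.7% in COLO205 with −log10 q from 5 upward. The share found in another list was 40.9% for HCT116, 38% for HT29, 26.9% for HCT15, 55.6% for COLO320DM and 54.6% for COLO205 with 50% reciprocal overlap. On the other chromosomes it was 47.5%, 45.0%, 59.7%, 43.0% and 46.9% in the same order. With summits within 100 nt the chromosome 19 share was 48.8% for HCT116, 52.0% for HT29, 62.7% for COLO320DM and 65.6% for COLO205. At a −log10 q of at least 5 it was 49.5% in HT29, 50% in HCT15 and 68.6% in COLO205, against 61.1%, 92.03% and 63.8% on the other chromosomes. With the strongest 905 peaks it was 50% in HCT116, against 63.1%, and 7.69% in HCT15, against 37.7%. Leaving out 1 other list gave 39.5% to 54.7% for HCT116, 45.8% to 59.6% for HT29, 53.8% to 84.6% for HCT15, 44.4% to 70.1% for COLO320DM and 60.3% to 73.1% for COLO205. Shares on the other chromosomes were not taken for summits within 100 nt or for lists left out. Regions of the 4 long lists numbered 54 with reciprocal overlap, 44 at a −log10 q of 5 or more, 7 with the strongest 905 peaks, and 88 to 142 when 1 long list was left out. Fewer peaks enter the stricter lists; otherwise the cause was not tested. No paired analysis was possible because each line has 1 IP library.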

Other observations

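The centromere window held 7 peaks in all, 3 of COLO320DM, 2 of COLO205 and 1 each of HCT116 and HT29.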
